A study of Mus musculus with 16 samples.

Results

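The genes described here are 40 genes of blood and lymph vessels and of their growth, named as a list of symbols, and every probe annotated to one of those symbols on the array was taken. Of the 40 genes, 39 had a probe and 58 probes in all stood for them, out of 16593 named genes and 25697 probes. Cldn5, a tight junction gene, had no probe. A gene was tested in a tissue when a probe of it was detected there, that is, brighter than nearly all negative controls (detection p under 0.05), with both arrays of some group meeting this. This left 32 genes in epididymal fat and 30 in liver, with 28 tested in both, 4 only in fat (Sox17, Angpt1, Pgf and Nrp2) and 2 only in liver (Stab2 and Flt4). Dll4, Erg, Kdr, Prox2 and Sele had a probe and were tested in neither tissue. Their probes were detected on 4 of 16 arrays for Kdr, on 2 for Dll4 and on 0 for Erg, Prox2 and Sele. Kdr, the main signalling receptor for VEGF-A, Dll4, a Notch ligand of sprouting vessels, and Erg, an endothelial transcription factor, therefore carry no values below.

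Endothelial cells line every vessel and are held together by adhesion molecules such as those encoded by Cdh5, Pecam1 and Esam. New vessels sprout when VEGF family ligands bind receptor tyrosine kinases on these cells, with neuropilins as coreceptors, while angiopoietins acting on the receptor encoded by Tek, with its relative Tie1, set how stable a vessel is. In fat, vessels feed adipocytes and grow with the depot, and in liver the sinusoids are lined by a specialised, leaky endothelium that takes up macromolecules through scavenger receptors such as those encoded by Stab1 and Stab2. The list was read in 6 groups by role: 19 general endothelial genes, 3 sinusoidal genes, 4 listed as lymphatic, 6 growth factors, 4 coreceptors and Notch genes, and 4 inducible adhesion genes. Among those listed as lymphatic, Prox2 is a different gene from Prox1, the transcription factor that marks lymphatic endothelium.

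Gene expression was measured on 1-colour bead arrays in liver and in epididymal white adipose tissue, written eWAT, a fat pad that lies beside the epididymis. Animals were FGF1 null, without the gene for a secreted fibroblast growth factor, or wild-type, and were 24 weeks old. They ate a high-fat diet (HFD) or normal chow for 16 weeks, so that each tissue had 4 groups: FGF1 null on HFD, wild-type on HFD, FGF1 null on chow and wild-type on chow. Each of the 8 groups was hybridized on 2 arrays described as technical replicates, so each group is 1 RNA sample. Whether single or pooled mice gave each RNA is not stated. Array tests therefore compare RNA samples and not mice, and their p-values measure the spread between arrays only. Levels are log2 normalized intensities, the 8 arrays of each tissue having been normalized together, and a level of 1 gene is not comparable with that of another because probes differ in brightness. A gene was called higher or lower at a Benjamini-Hochberg adjusted p under 0.05 over all features of the tissue (limma) together with a change of at least 2-fold, which is a log2 difference of 1.

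Each eWAT array had 13570 to 15399 detected probes and each liver array 10626 to 11650, and the 2 arrays of a group correlated at 0.988 to 0.995. Fgf1 itself, read by its brightest probe, averaged 8.23 in FGF1 null and 9.66 in wild-type liver on HFD, and 9.36 in FGF1 null and 10.31 in wild-type liver on chow. In eWAT it averaged 9.28 in FGF1 null and 10.78 in wild-type on HFD, but 9.99 in the sample labelled FGF1 null on chow and 9.32 in wild-type on chow, which goes against the label, and that sample is called by its label below. A second, dimmer Fgf1 probe averaged 7.66 in FGF1 null and 7.42 in wild-type eWAT on HFD, 7.25 in the sample labelled FGF1 null and 6.09 in wild-type eWAT on chow, and its liver arrays overlapped between genotypes on both diets. The sources used here do not place either probe against the deletion. Markers of other organs also differed between the eWAT samples. The mean level of 15 epididymis and sperm genes was 8.70 in FGF1 null on HFD, 5.86 in wild-type on HFD, 8.96 in the sample labelled FGF1 null on chow and 12.45 in wild-type on chow. For 19 exocrine pancreas genes these means were 15.18, 12.01, 5.19 and 5.20 in the same order of samples, and for 11 hepatocyte genes 9.12, 13.80, 8.36 and 8.60. The mean of 11 adipocyte genes was 12.31 in FGF1 null on HFD, 12.65 in wild-type on HFD and 11.06 in wild-type on chow, the lowest of the 4, with 9 or 10 of them detected on both arrays of every eWAT sample, and in liver 11 of 11 hepatocyte genes were detected in every sample, with means of 15.34 to 15.42.

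RefSeq promoter windows (GRCm38.p6, 250 bases before to 50 after a gene's start) were on hand for 27 of the 40 genes, in 34 windows. They were searched on both strands for CNGGAAG, a core bound by ETS factors, the transcription factor family to which Erg belongs and which is known for endothelial gene control. At least 1 match was present in 14 of the 34 windows (41.2%), against 31.9% of all 32851 windows in the table. By gene, 13 of 27 had a match, among them 6 of 10 general endothelial genes, 3 of 4 coreceptors and Notch genes and 0 of 4 growth factors. Windows of 4 genes with a match are shown because these genes were called higher together in 2 of the eWAT comparisons below: Tie1, an orphan receptor kinase (chr4:118489800-118490099, minus strand), Robo4, a vessel-stabilising receptor (chr9:37401722-37402021, plus strand), Flt1, VEGF receptor 1 (chr5:147725962-147726261, minus strand), and Stab1, a scavenger receptor (chr14:31168592-31168891, minus strand). Each is printed 5′ to 3′ on the gene's strand, with matches in capitals, where CTTCCNG is a match read on the opposite strand.
Tie1: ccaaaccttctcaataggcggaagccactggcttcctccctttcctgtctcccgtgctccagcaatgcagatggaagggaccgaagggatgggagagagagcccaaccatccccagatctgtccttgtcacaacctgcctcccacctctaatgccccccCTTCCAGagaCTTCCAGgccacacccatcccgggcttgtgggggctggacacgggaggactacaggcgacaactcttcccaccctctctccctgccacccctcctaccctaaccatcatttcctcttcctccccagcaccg
Robo4: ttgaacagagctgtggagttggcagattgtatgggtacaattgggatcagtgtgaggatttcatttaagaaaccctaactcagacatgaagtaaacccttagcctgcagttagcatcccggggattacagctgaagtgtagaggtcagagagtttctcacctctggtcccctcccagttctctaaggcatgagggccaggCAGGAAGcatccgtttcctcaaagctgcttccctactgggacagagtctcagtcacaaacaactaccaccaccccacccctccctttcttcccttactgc
Flt1: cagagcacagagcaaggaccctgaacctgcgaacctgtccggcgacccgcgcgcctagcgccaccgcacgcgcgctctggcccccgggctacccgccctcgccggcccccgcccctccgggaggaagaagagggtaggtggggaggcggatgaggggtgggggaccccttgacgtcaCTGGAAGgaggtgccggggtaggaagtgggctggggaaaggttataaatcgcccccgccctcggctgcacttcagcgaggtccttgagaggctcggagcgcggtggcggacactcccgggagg
Stab1: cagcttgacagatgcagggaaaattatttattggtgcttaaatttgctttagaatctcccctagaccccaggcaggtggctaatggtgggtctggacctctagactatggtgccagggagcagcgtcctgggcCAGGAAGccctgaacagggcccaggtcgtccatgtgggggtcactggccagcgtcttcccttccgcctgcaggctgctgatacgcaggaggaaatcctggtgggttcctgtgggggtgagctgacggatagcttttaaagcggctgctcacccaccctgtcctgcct
Emcn and Nrp1 also had a match and were called higher in the same 2 comparisons. Tek, Vegfb and Vegfc were called higher in both and had windows without a match. A match says only that these letters are present in the window. GGGNNTTCC, an NF-kB-like motif, was in 1 of the 34 windows (2.94%), of Notch4, against 5.82% of all windows. Only this 9-base pattern was searched, so a window without a match was not shown to lack an NF-kB site. ACGTG, a hypoxia response core, was in 2 of the 34 windows (5.88%), of Vegfa and Pdpn, against 19.6% of all windows. Vegfa had its match only in the window at chr17:46025114-46025413, and its other window, at chr17:46032328-46032627, had 0. No array probe reports on these windows.

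In eWAT most of the vascular genes were lowest in the wild-type sample on chow. Both of its arrays lay below the 6 other arrays for 24 of the 32 genes (75%), against 28.8% of all 11935 features, and for 15 of the 16 general endothelial genes. Sox17 was the general endothelial gene that did not follow. The FGF1 null sample on HFD lay above the 6 other arrays for 16 of the 32 genes (50%), against 12.4% of all features, and for 12 of the 16 general endothelial genes. That sample is also the one with the most exocrine pancreas RNA: the summed level of the 19 pancreas genes was 769613 to 789251 in FGF1 null on HFD, 112834 to 114948 in wild-type on HFD, 2228 to 2289 in the sample labelled FGF1 null on chow and 1299 to 1305 in wild-type on chow, with 19, 19, 4 and 3 of the 19 genes detected on both arrays, and its part in the result was not tested. The wild-type sample on HFD lay above the others for 3 of the 32 genes (9.38%, against 14.1% of all features), namely Cdh5, Nos3 and Clec4g. It lay below them for Pdpn, Sox17 and Vcam1 (9.38%, against 13%). The sample labelled FGF1 null on chow lay above the others for 4 genes (12.5%, against 13.5%), namely Angpt2, Icam1, Nrp1 and Stab1. None of these shares is above that of all features. In RNA from whole tissue, fewer vessel cells and less RNA of these genes per cell cannot be told apart. The sample in which these genes were lowest is also the one with the most epididymis and sperm RNA and the lowest adipocyte mean. The summed level of the 15 epididymis and sperm genes was 38608 to 40033 in FGF1 null on HFD, 1822 to 1823 in wild-type on HFD, 57755 to 58277 in the sample labelled FGF1 null on chow and 231638 to 238998 in wild-type on chow, with 12, 6, 12 and 14 of the 15 genes detected on both arrays. The part of the other tissue in the result was not tested.

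**Figure D1:**
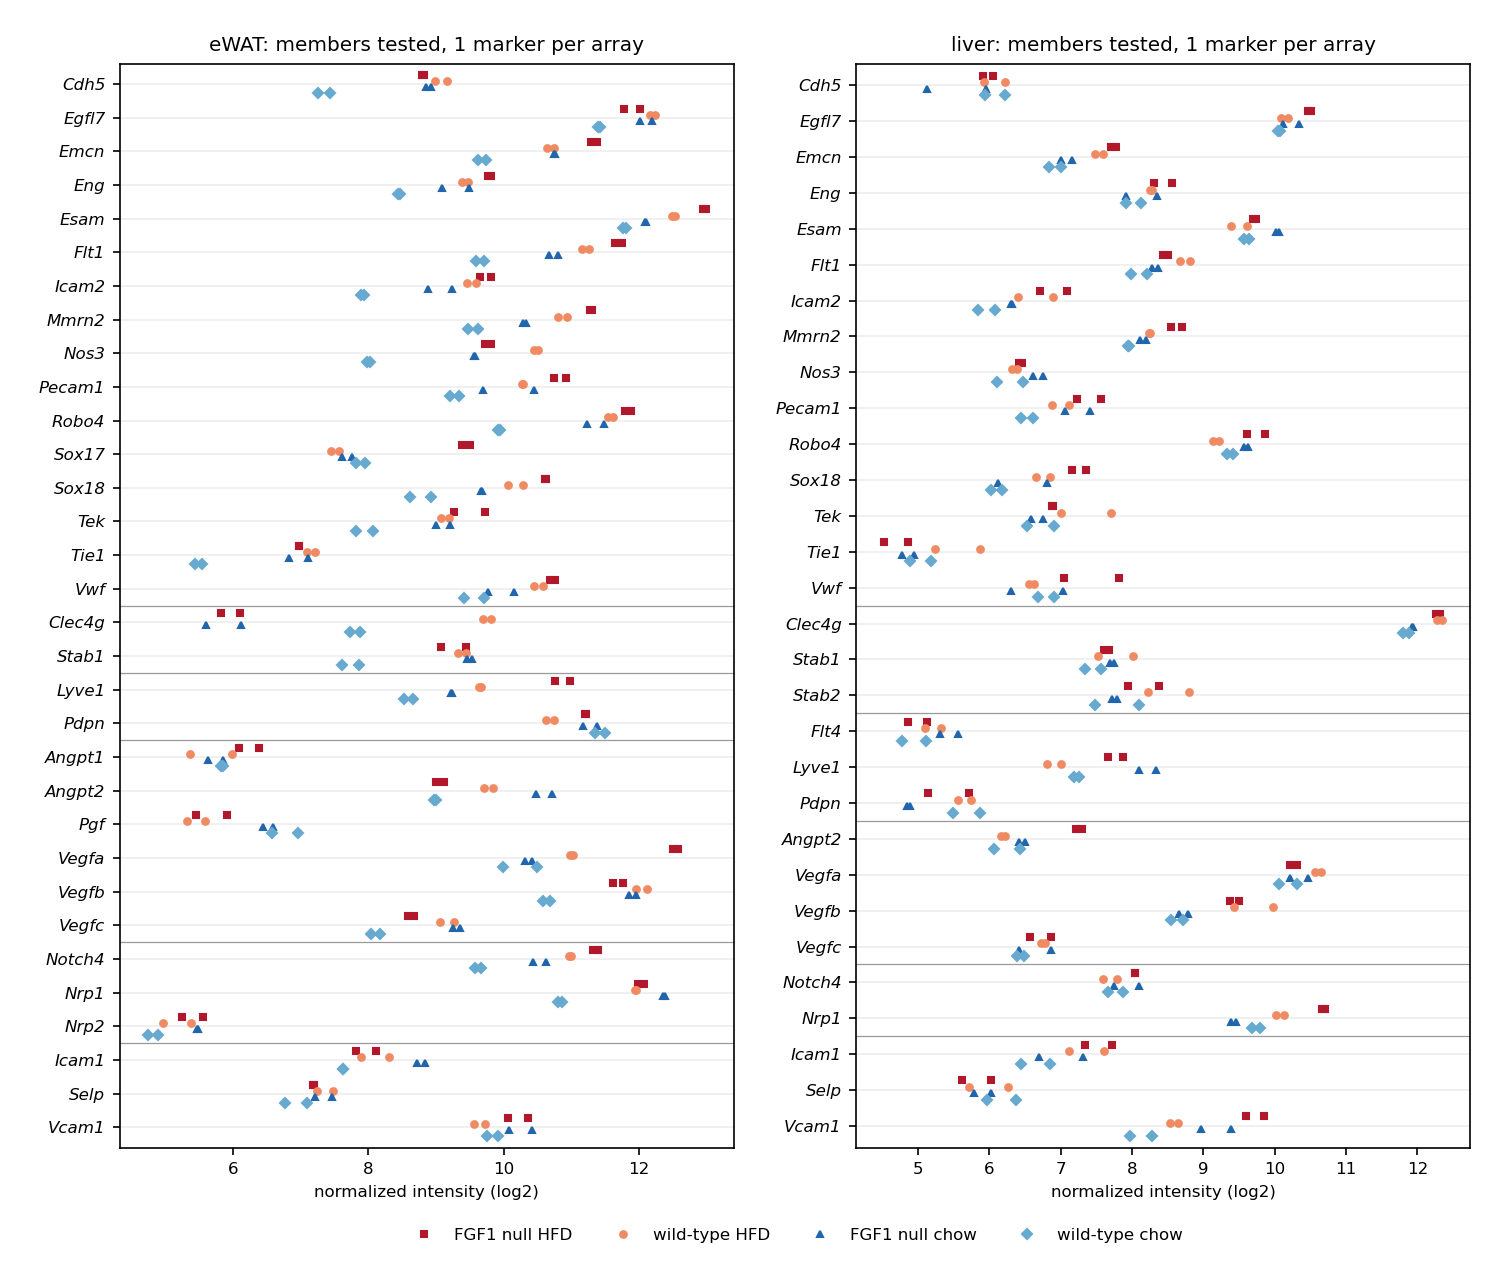
Normalized intensity (log2, horizontal axis) of every tested gene in eWAT (left) and liver (right), with 1 marker per array, 2 arrays per RNA sample, and grey lines between the role groups. In eWAT both wild-type chow arrays lie below the 6 other arrays for 24 of the 32 genes (75%, against 28.8% of all features). In liver this holds for 7 of 30 (23.3%, against 8.62%).

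On HFD relative to chow, wild-type eWAT had 18 of 32 vascular genes higher and 1 lower, where 16.6% of all features were called higher and 16.7% lower (33.3% in all). The median difference of the 32 genes was 1.04, against 0.11 for all features. In the FGF1 null genotype, 3 genes were higher on HFD than in the sample labelled FGF1 null on chow and 1 was lower, against 4.18% and 6.02% of all features (10.2% in all), and the median was 0.30, against -0.03. Set by genotype on HFD, FGF1 null eWAT had 3 genes higher and 1 lower than wild-type, against 5.27% and 6.01% of all features (11.3% in all), with a median of 0.25, against 0.01. On chow, the sample labelled FGF1 null had 14 genes higher and 1 lower than wild-type, against 13.7% and 13.6% of all features (27.3% in all), with a median of 0.87, against 0.07. The 2 comparisons with many called genes share the wild-type chow sample. The 2 comparisons that do not use it called 4 of 32 genes each. With the authors' normalized values, 12 genes were called for diet in wild-type and 7 for genotype on chow.

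**Figure D2:**
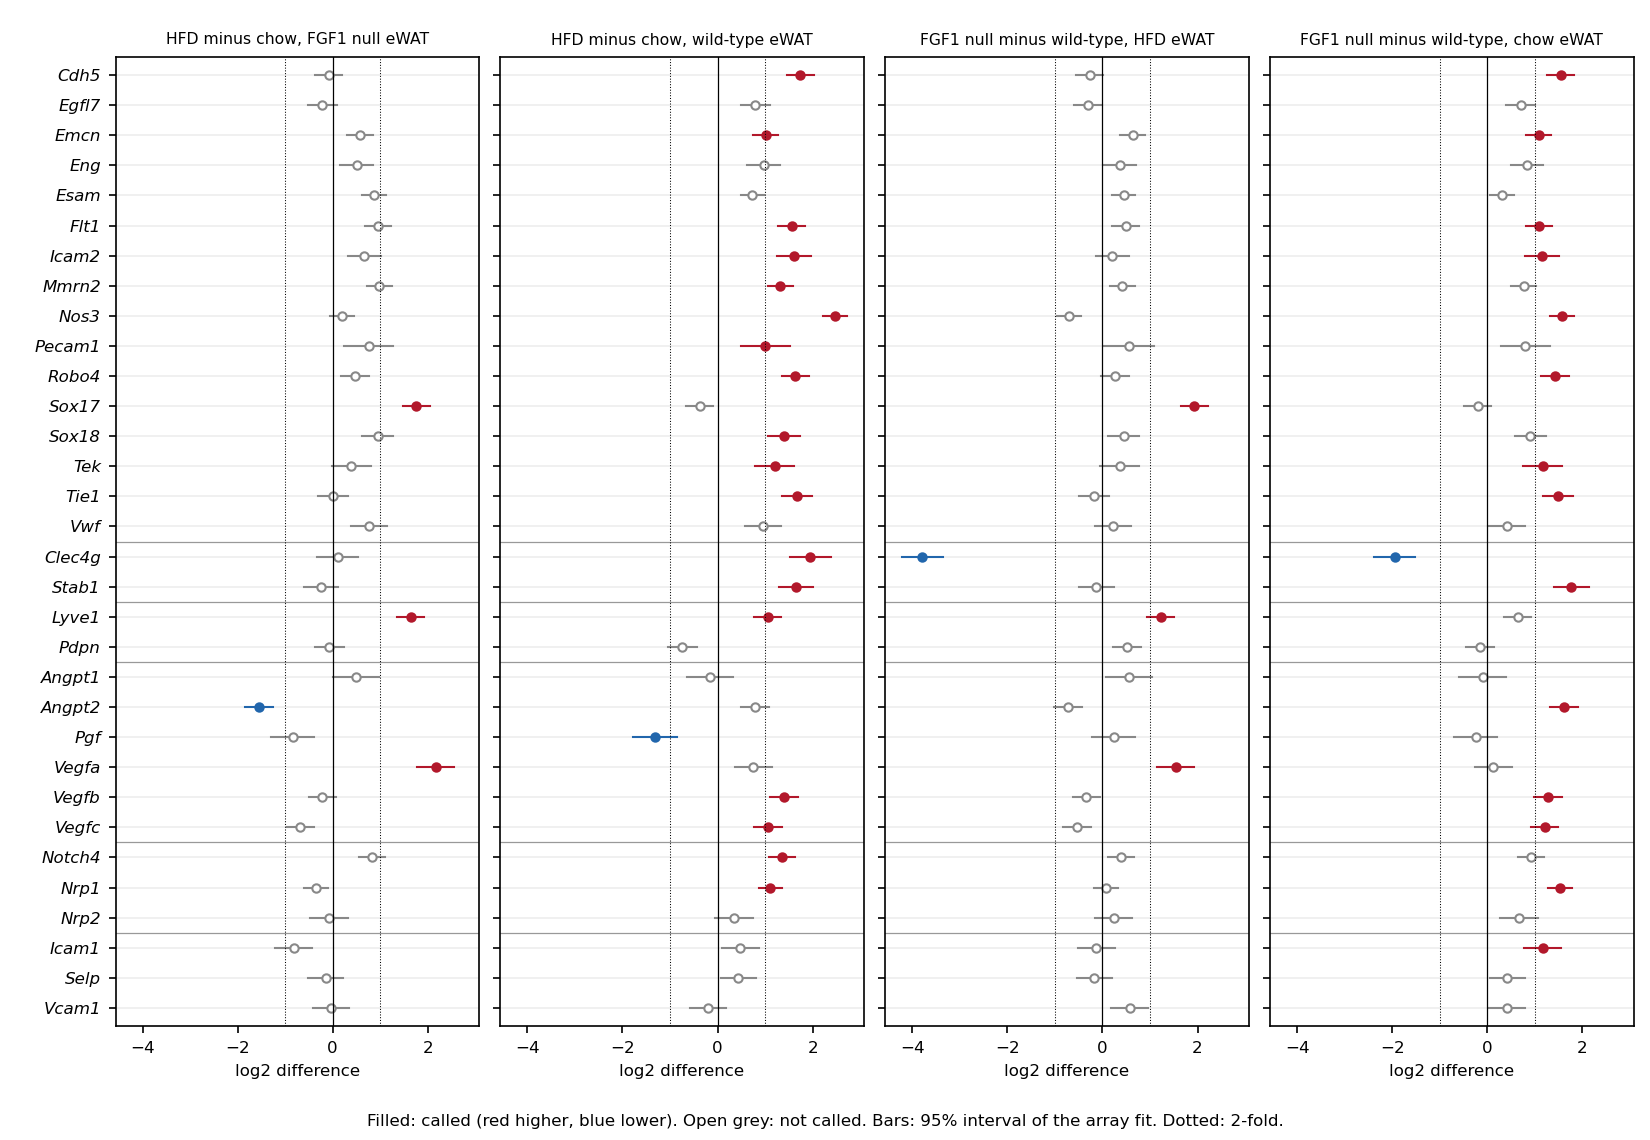
Log2 difference (horizontal axis) of each tested gene in 4 eWAT comparisons, with the 95% interval of the array fit and dotted lines at a 2-fold change. Filled red points were called higher and filled blue points lower. The comparisons against wild-type on chow (the panels for diet in wild-type and for genotype on chow) hold 19 and 15 called genes, and the other panels hold 4 each.

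Among the 16 general endothelial genes, 11 were higher on HFD than on chow in wild-type eWAT: Nos3, Cdh5, Tie1, Robo4, Icam2, Flt1, Sox18, Mmrn2, Tek, Emcn and Pecam1. Nos3, the endothelial nitric oxide synthase, read 9.73 and 9.82 in FGF1 null on HFD, 10.45 and 10.51 in wild-type on HFD, 9.58 and 9.57 in the sample labelled FGF1 null on chow, and 7.98 and 8.03 in wild-type on chow. Its 2 wild-type chow arrays were well below all others, and the wild-type HFD arrays were the highest. The diet difference in wild-type was 2.48 ± 0.11 (SE, 5.57-fold, adjusted p = 4.43e-07), and the difference between the sample labelled FGF1 null and wild-type on chow was 1.57 ± 0.11 (adjusted p = 8.62e-06). Cdh5, which encodes VE-cadherin of endothelial junctions, read 8.79 and 8.82 in FGF1 null on HFD, 8.99 and 9.16 in wild-type on HFD, 8.93 and 8.85 in the sample labelled FGF1 null on chow, and 7.42 and 7.26 in wild-type on chow. The wild-type chow arrays stood apart below the 3 other samples, and the diet difference in wild-type was 1.74 ± 0.12 (adjusted p = 7.12e-06). Tie1 was likewise lowest in wild-type on chow, with 6.98 and 6.97 in FGF1 null on HFD, 7.09 and 7.21 in wild-type on HFD, 7.11 and 6.82 in the sample labelled FGF1 null on chow, and 5.54 and 5.43 in wild-type on chow. Its diet difference was 1.67 ± 0.13 in wild-type (adjusted p = 1.56e-05) and 0.01 ± 0.13 in FGF1 null (adjusted p = 0.977). The Tie1 calls were lost without background correction, with 0.76 for diet in wild-type and 0.66 for the sample labelled FGF1 null against wild-type on chow, and with the authors' normalized values (0.73 and 0.63).

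The other 8 genes called higher on HFD in wild-type eWAT ran from 1.00 ± 0.22 for Pecam1, an adhesion molecule widely used to mark endothelium, to 1.64 ± 0.13 for Robo4. Pecam1 and Emcn, encoding the sialomucin endomucin, sat just past the 2-fold limit at 1.00 and 1.02. Eng (0.97), Vwf (0.95), Egfl7 (0.79) and Esam (0.73) had adjusted p under 0.05 and fell short of 2-fold, and Sox17 was at -0.38 ± 0.12. On chow, the sample labelled FGF1 null had 8 of the 16 higher than wild-type: Nos3, Cdh5, Tie1, Robo4, Tek, Icam2, Flt1 and Emcn, from 1.57 for Nos3 down to 1.08 for Emcn. With the authors' normalized values Pecam1, Tek and Emcn also fell short of 2-fold for diet in wild-type, and Tek, Emcn, Icam2 and Flt1 for the chow comparison, at 0.86 to 0.99. Tek, the angiopoietin receptor, differed by 1.16 ± 0.18 (adjusted p = 0.000828). Vwf, the von Willebrand clotting factor made by endothelium, differed by only 0.40 ± 0.17 there (adjusted p = 0.0672), with 9.77 and 10.16 in the sample labelled FGF1 null and 9.41 and 9.71 in wild-type.

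Sox17, a transcription factor known for arterial endothelium, did not follow the rest of its group. It read 9.50 and 9.39 in FGF1 null on HFD, 7.57 and 7.45 in wild-type on HFD, 7.61 and 7.76 in the sample labelled FGF1 null on chow, and 7.82 and 7.95 in wild-type on chow. Only the FGF1 null HFD arrays were raised above the arrays of the 3 other samples. It was 1.94 ± 0.12 higher in FGF1 null than in wild-type on HFD (3.83-fold, adjusted p = 1.22e-05) and 1.76 ± 0.12 higher in FGF1 null on HFD than in the sample labelled FGF1 null on chow (adjusted p = 4.5e-05). Its second probe gave 2.07 and 2.00 for the same comparisons. That sample also had the highest exocrine pancreas level of the 4, at 15.18, and the part of pancreas RNA in the Sox17 signal was not tested. The remaining general endothelial genes did not differ by 2-fold between FGF1 null and wild-type eWAT on HFD, with differences from -0.71 for Nos3 to 0.64 for Emcn.

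The 6 growth factors split. Vegfa, the principal driver of vessel sprouting, read 12.51 and 12.57 in FGF1 null on HFD, 10.98 and 11.03 in wild-type on HFD, 10.41 and 10.32 in the sample labelled FGF1 null on chow, and 10.50 and 9.99 in wild-type on chow. The FGF1 null HFD arrays were the highest and the 2 chow samples overlapped. Vegfa was 2.17 ± 0.17 higher in FGF1 null on HFD than in the sample labelled FGF1 null on chow (4.51-fold, adjusted p = 7.57e-05) and 1.54 ± 0.17 higher in FGF1 null than in wild-type on HFD (adjusted p = 0.000318). In wild-type the diet difference of 0.75 ± 0.17 fell short of 2-fold. A second, dimmer Vegfa probe was called in the same 2 comparisons, at 2.11 and 1.29. The dimmer probe was not called in the wild-type diet comparison either, at 0.91. The exocrine pancreas mean was likewise highest in FGF1 null on HFD, at 15.18, and its part in the Vegfa values was not tested.

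Vegfb, a ligand of the receptor encoded by Flt1, and Vegfc, the ligand of the lymphatic receptor Flt4, were likewise lowest in wild-type on chow. Vegfb read 11.62 and 11.77 in FGF1 null on HFD, 12.12 and 11.96 in wild-type on HFD, 11.96 and 11.86 in the sample labelled FGF1 null on chow, and 10.69 and 10.59 in wild-type on chow. Vegfc read 8.67 and 8.58 in FGF1 null on HFD, 9.06 and 9.26 in wild-type on HFD, 9.36 and 9.25 in the sample labelled FGF1 null on chow, and 8.04 and 8.17 in wild-type on chow. For both genes the wild-type chow arrays were lowest and no arrays of that sample overlapped the others. Relative to wild-type on chow, Vegfb was 1.40 ± 0.12 higher in wild-type on HFD and 1.27 ± 0.12 higher in the sample labelled FGF1 null on chow, and Vegfc 1.06 ± 0.13 and 1.20 ± 0.13 higher. Both Vegfc values fell short of 2-fold without background correction (0.85 and 0.97) and with the authors' normalized values (0.81 and 0.94).

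Angpt2, which encodes the angiopoietin that loosens vessels, was highest in the sample labelled FGF1 null on chow. Its 2 arrays averaged 9.06 ± 0.09 in FGF1 null on HFD, 9.78 ± 0.10 in wild-type on HFD, 10.60 ± 0.16 in the sample labelled FGF1 null on chow, and 8.99 ± 0.02 in wild-type on chow (SD of arrays). It was 1.54 ± 0.13 lower in FGF1 null on HFD than in the sample labelled FGF1 null on chow (2.91-fold, adjusted p = 0.000105) and 1.61 ± 0.13 higher in that chow sample than in wild-type on chow (adjusted p = 1.99e-05). Pgf, placental growth factor, was the single gene called lower on HFD in wild-type, with 5.91 and 5.46 in FGF1 null on HFD, 5.32 and 5.58 in wild-type on HFD, 6.45 and 6.59 in the sample labelled FGF1 null on chow, and 6.58 and 6.95 in wild-type on chow. Both HFD samples lay below both chow samples for Pgf. Its probe was detected on 1 of 2 arrays in wild-type on HFD, so the difference of -1.32 ± 0.20 rests on a level near background. The Pgf difference fell short of 2-fold without background correction (-0.56), with the authors' normalized values (-0.54) and with an offset of 50 (-0.88). Angpt1, which encodes the angiopoietin that stabilises vessels, stayed between 5.36 and 6.38 on all 8 arrays and was called in no comparison.

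**Figure D3:**
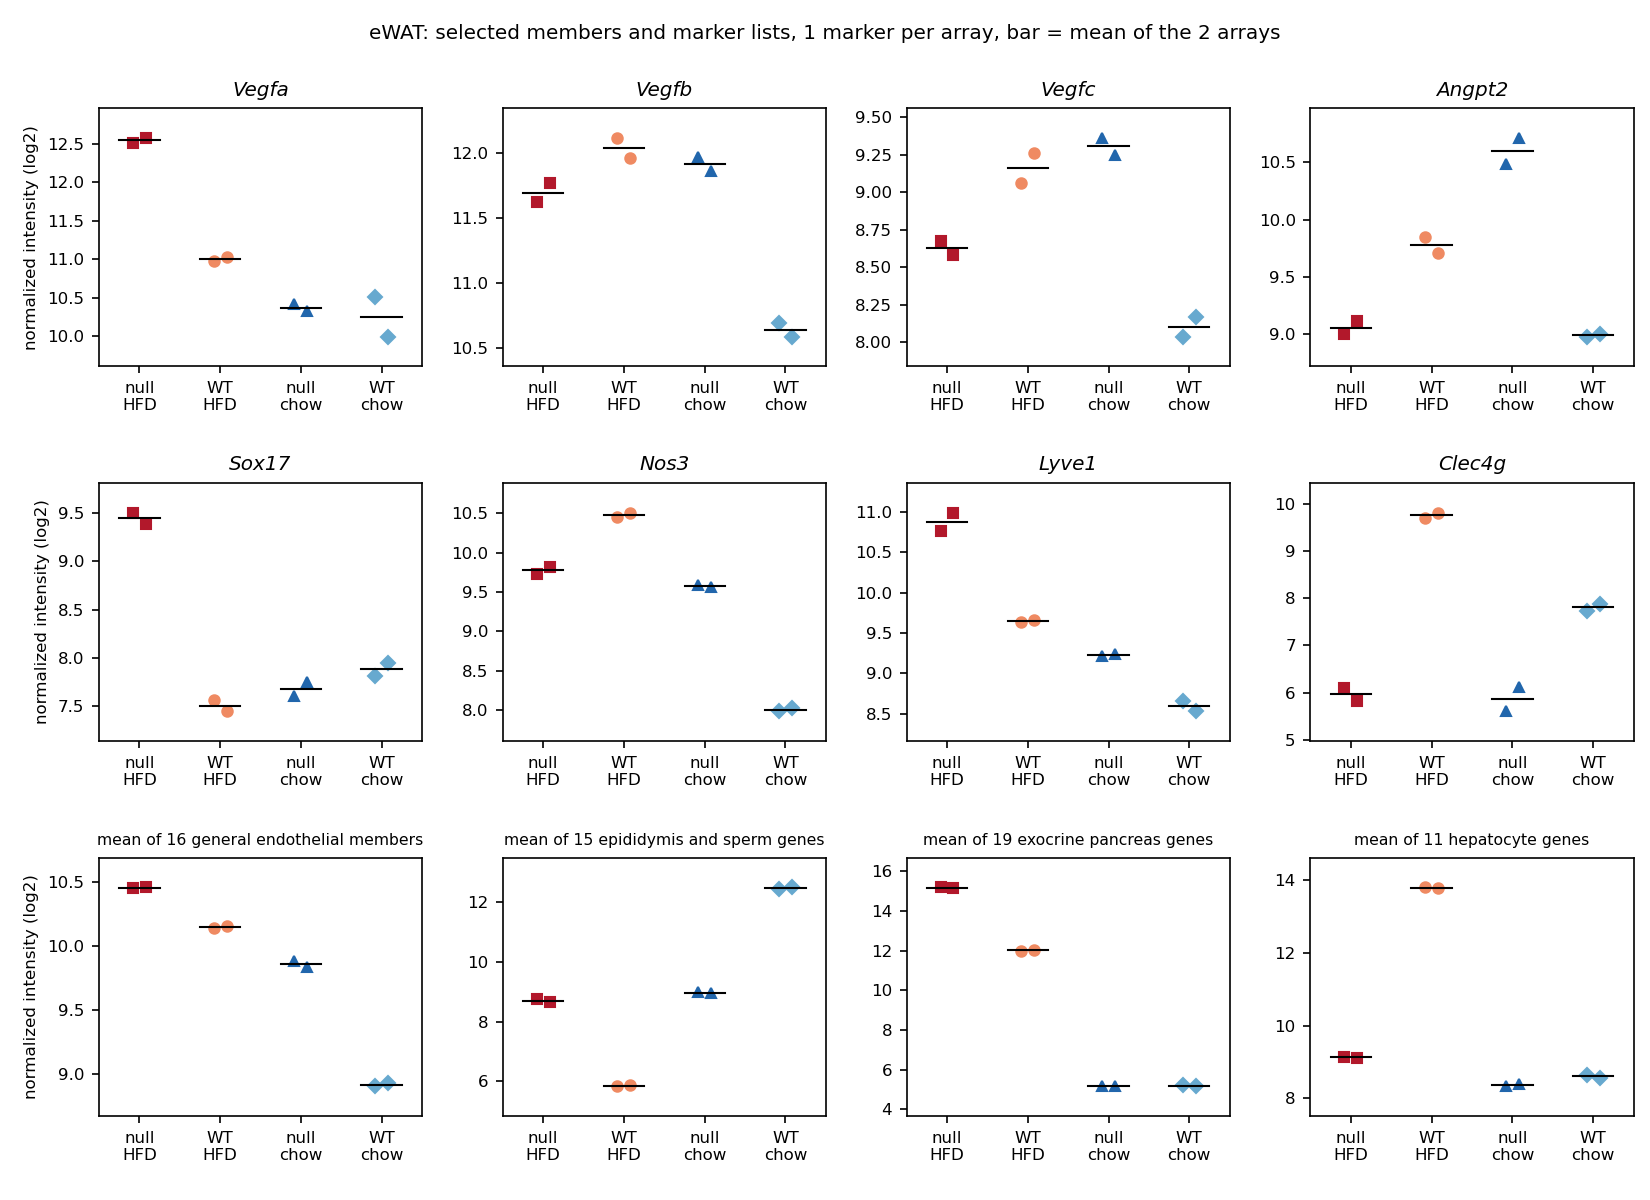
Normalized intensity (log2, vertical axis, not starting at 0) in the 4 eWAT samples for 8 genes (upper rows) and for the means of 4 gene lists (bottom row), with 1 marker per array and a bar at the mean of 2 arrays. Vegfa and Sox17 are raised in FGF1 null on HFD, Clec4g in wild-type on HFD together with the hepatocyte genes (mean 13.80), and the general endothelial mean is lowest in wild-type on chow (8.92), where the epididymis and sperm mean is highest (12.45).

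Of the coreceptors and Notch genes, Nrp1, the neuropilin that binds VEGF-A, read 11.98 and 12.07 in FGF1 null on HFD, 11.94 and 11.96 in wild-type on HFD, 12.39 and 12.35 in the sample labelled FGF1 null on chow, and 10.87 and 10.80 in wild-type on chow. It was 1.11 ± 0.11 higher on HFD in wild-type and 1.53 ± 0.11 higher in the sample labelled FGF1 null than in wild-type on chow. Notch4, an endothelial Notch receptor, was 1.35 ± 0.12 higher on HFD in wild-type and 0.91 ± 0.12 apart on chow, which fell short of 2-fold. Nrp2, the neuropilin of lymphatic and venous endothelium, stayed near background at 4.74 to 5.55 and was called in no eWAT comparison.

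The sinusoidal genes Stab1 and Clec4g parted. Stab1, also found in macrophages, read 9.44 and 9.08 in FGF1 null on HFD, 9.32 and 9.45 in wild-type on HFD, 9.47 and 9.54 in the sample labelled FGF1 null on chow, and 7.86 and 7.61 in wild-type on chow. It was 1.65 ± 0.16 higher on HFD in wild-type and 1.76 ± 0.16 higher in the sample labelled FGF1 null than in wild-type on chow. The mean of 13 macrophage genes ran the same way, at 8.25 in FGF1 null on HFD, 8.93 in wild-type on HFD, 9.69 in the sample labelled FGF1 null on chow and 6.96 in wild-type on chow, and its part in the Stab1 result was not tested.

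Clec4g, a lectin of liver and lymph node sinusoids, read 6.11 and 5.82 in FGF1 null on HFD, 9.70 and 9.81 in wild-type on HFD, 5.60 and 6.11 in the sample labelled FGF1 null on chow, and 7.73 and 7.88 in wild-type on chow. The wild-type arrays were above the FGF1 null arrays on each diet and did not overlap them. It was 3.79 ± 0.19 lower in FGF1 null than in wild-type on HFD (adjusted p = 2.7e-06), 1.95 ± 0.19 lower in the sample labelled FGF1 null than in wild-type on chow, and 1.95 ± 0.19 higher on HFD than on chow in wild-type. The raw intensity averaged 143 in FGF1 null and 914 in wild-type on HFD, and 155 in the sample labelled FGF1 null and 375 in wild-type on chow, so the FGF1 null levels lie near background, although detected on both arrays, and the size of these differences depends on the background correction. With the authors' normalized values the genotype difference on chow was -0.99, short of 2-fold. The hepatocyte mean was 9.12 in FGF1 null and 13.80 in wild-type on HFD, and 8.36 in the sample labelled FGF1 null and 8.60 in wild-type on chow. The part of liver RNA in the Clec4g values was not tested.

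Lyve1, a hyaluronan receptor of lymphatic endothelium and of some macrophages, read 10.76 and 10.99 in FGF1 null on HFD, 9.64 and 9.66 in wild-type on HFD, 9.22 and 9.24 in the sample labelled FGF1 null on chow, and 8.66 and 8.53 in wild-type on chow. No 2 samples overlapped. It was higher on HFD in both genotypes, by 1.64 ± 0.12 in FGF1 null and 1.05 ± 0.12 in wild-type, and 1.22 ± 0.12 higher in FGF1 null than in wild-type on HFD (adjusted p = 0.000206). The diet difference in wild-type fell short of 2-fold without background correction (0.90) and with the authors' normalized values (0.85). Pdpn, podoplanin of lymphatic endothelium and of fibroblasts and mesothelium, was called in no eWAT comparison, with arrays from 10.63 to 11.50. Of the inducible adhesion genes, Icam1, which endothelium raises under inflammatory signals, read 8.84 and 8.72 in the sample labelled FGF1 null on chow and 7.62 and 7.62 in wild-type on chow, a difference of 1.16 ± 0.17 (adjusted p = 0.000582), which was 0.83 and short of 2-fold with the authors' normalized values. The macrophage mean was 9.69 in the sample labelled FGF1 null and 6.96 in wild-type on chow, and its part in the Icam1 result was not tested. Vcam1 and Selp, a leukocyte adhesion receptor and P-selectin, were called in no eWAT comparison, with differences from -0.20 to 0.57 for Vcam1 and from -0.17 to 0.44 for Selp.

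Whether the diet difference itself differed between genotypes was tested as the FGF1 null diet difference minus the wild-type one. In eWAT, 14 of 32 genes were called, 2 higher and 12 lower, where 39.5% of all features were called (19.3% higher and 20.2% lower), so the share of 43.8% lies near that of all features. Sox17 (2.14 ± 0.17) and Vegfa (1.42 ± 0.24) had the larger diet difference in FGF1 null. Angpt2 (-2.33 ± 0.18), Nos3 (-2.28 ± 0.15), Stab1 (-1.89 ± 0.22), Clec4g (-1.84 ± 0.26), Cdh5 (-1.82 ± 0.17), Vegfc (-1.74 ± 0.18), Tie1 (-1.66 ± 0.19), Vegfb (-1.62 ± 0.17), Nrp1 (-1.46 ± 0.15), Icam1 (-1.29 ± 0.24), Robo4 (-1.16 ± 0.18) and Egfl7 (-1.01 ± 0.18) had the lower one. The Tie1 value was -0.76 without background correction and -0.73 with the authors' normalized values, short of 2-fold. Icam1 likewise fell short, at -0.97 and -0.92. Egfl7 was at -0.98 without background correction, and at -0.89 without FGF1 null HFD array 2. For Esam (0.14 ± 0.15), Vwf (-0.19 ± 0.23) and Pecam1 (-0.24 ± 0.31) no difference of the diet differences was called.

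With 1 value per RNA sample and an additive fit of diet and genotype to the 4 eWAT samples, which leaves 1 residual degree of freedom, 0 of 32 genes and 0% of all features were called for either factor. At an unadjusted p under 0.05 the diet term held 1 of the 32 genes, Lyve1 (1.35 ± 0.44), and 197 of all features, and the genotype term held Clec4g (-2.87 ± 0.65) and 73 of all features. The median estimate of the 16 general endothelial genes was 0.85 for diet and 0.66 for genotype, against 0.03 and 0.06 over all features. Both terms use the wild-type chow sample, which lay below the other arrays for 15 of these 16 genes. The medians are therefore not separate results. No estimate of these genes passed the adjusted test for either term.

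In liver few vascular genes were called. The diet comparison called 1 of 30 genes in each genotype, against 8.58% of all features in FGF1 null (5.88% higher and 2.7% lower) and 5.72% in wild-type (3.24% higher and 2.48% lower). By genotype, 2 of 30 were called on HFD and 1 on chow, against 4.96% (3.34% higher and 1.62% lower) and 1.79% (1% higher and 0.787% lower). The interaction called 0 of 30, against 7.9% of all features (4.53% higher and 3.37% lower). The medians of the 30 genes were 0.28 for diet in FGF1 null and 0.31 in wild-type, and 0.17 for genotype on HFD and 0.18 on chow, against 0.02, 0.00, 0.01 and -0.03 for all features. All 5 calls were of genes outside the general endothelial group. Both wild-type chow arrays lay below the 6 other liver arrays for 7 of 30 genes, against 8.62% of all features, and both FGF1 null HFD arrays above them for 8 of 30, against 15.7%.

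Vcam1, which binds leukocytes carrying the integrin VLA-4, was higher in FGF1 null liver on both diets. It read 9.60 and 9.85 in FGF1 null and 8.64 and 8.53 in wild-type liver on HFD, and 8.96 and 9.39 in FGF1 null and 8.28 and 7.97 in wild-type liver on chow. The FGF1 null arrays lay above the wild-type arrays on each diet, with differences of 1.14 ± 0.19 on HFD (adjusted p = 0.00622) and 1.05 ± 0.19 on chow (adjusted p = 0.0217). In the additive fit to the 4 liver samples its genotype estimate was 1.09 ± 0.20, with an unadjusted p of 0.00369 and an adjusted p of 0.999. Lyve1 ran the same way without reaching 2-fold, at 0.87 ± 0.14 on HFD (adjusted p = 0.00679) and 0.99 ± 0.14 on chow (adjusted p = 0.00956). Its arrays averaged 7.77 ± 0.15 in FGF1 null and 6.90 ± 0.14 in wild-type liver on HFD, and 8.21 ± 0.16 in FGF1 null and 7.22 ± 0.05 in wild-type liver on chow (SD, 2 arrays each). The mean of 11 macrophage genes was 8.12 in FGF1 null and 7.08 in wild-type liver on HFD, and 6.72 in FGF1 null and 6.51 in wild-type liver on chow, and its part in the Vcam1 and Lyve1 values was not tested.

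Angpt2 read 7.21 and 7.30 in FGF1 null and 6.16 and 6.21 in wild-type liver on HFD, and 6.42 and 6.50 in FGF1 null and 6.06 and 6.43 in wild-type liver on chow. The FGF1 null HFD arrays alone were raised, and the genotype difference on HFD was 1.07 ± 0.15 (adjusted p = 0.00294). Nrp1 read 10.66 and 10.70 in FGF1 null and 10.02 and 10.13 in wild-type liver on HFD, and 9.45 and 9.38 in FGF1 null and 9.80 and 9.69 in wild-type liver on chow. HFD arrays lay above chow arrays in both genotypes, and the difference was called in FGF1 null (1.26 ± 0.12, adjusted p = 0.000268) and not in wild-type (0.34 ± 0.12). The interaction for Nrp1 was 0.93 ± 0.16, with an adjusted p of 0.0111, and fell short of 2-fold. Vegfb read 9.38 and 9.50 in FGF1 null and 9.98 and 9.43 in wild-type liver on HFD, and 8.66 and 8.78 in FGF1 null and 8.55 and 8.72 in wild-type liver on chow. The HFD arrays were above the chow arrays in both genotypes, and the call in wild-type (1.06 ± 0.19, adjusted p = 0.00718) had 0.72 ± 0.19 beside it in FGF1 null, short of 2-fold.

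**Figure D4:**
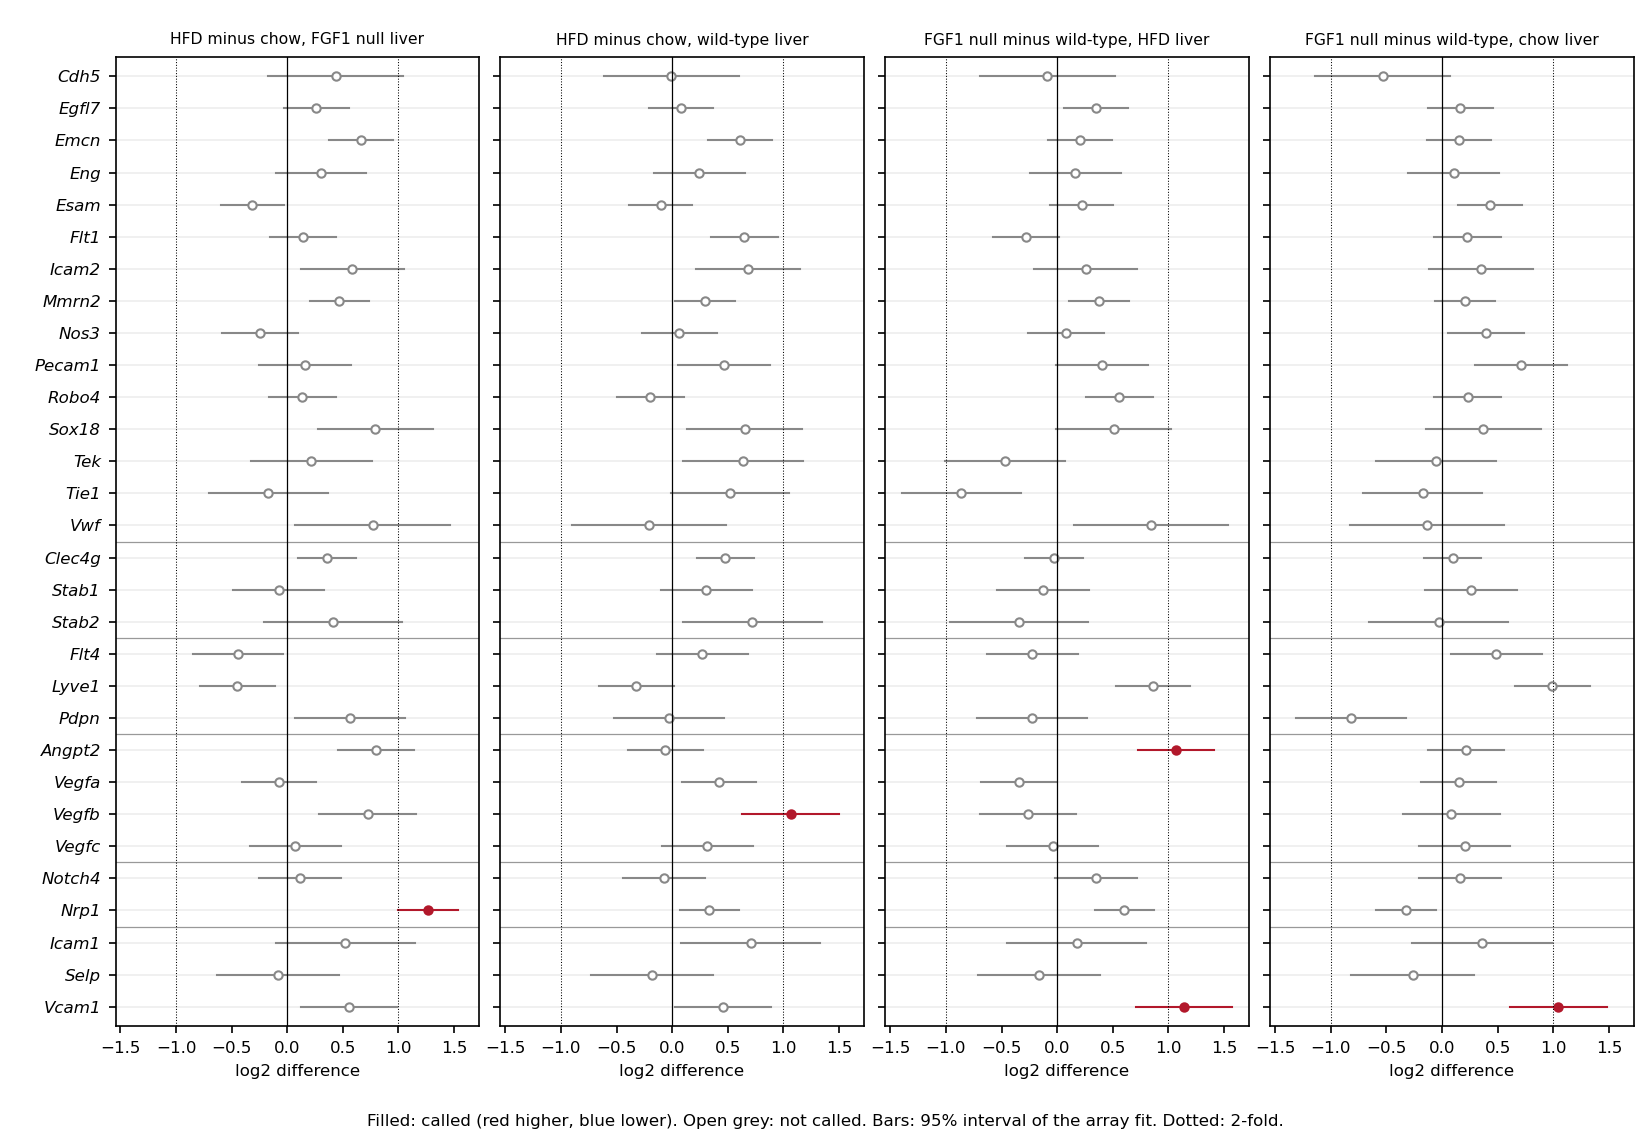
Log2 difference (horizontal axis) of each tested gene in 4 liver comparisons, with the 95% interval of the array fit and dotted lines at a 2-fold change. Filled points were called, and the panels hold 1, 1, 2 and 1 of them: Nrp1 for diet in FGF1 null, Vegfb for diet in wild-type, Angpt2 and Vcam1 for genotype on HFD, and Vcam1 for genotype on chow.

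No other gene was called in a liver comparison. With the authors' normalized values 0 of 30 genes were called in each of these 4 comparisons. Leaving out wild-type HFD array 1 or wild-type chow array 1 left 0 calls for diet in wild-type, leaving out wild-type chow array 2 left 0 for genotype on chow, and leaving out FGF1 null HFD array 2 left 1 for genotype on HFD. The Vcam1 call on chow was lost without FGF1 null chow array 2 (0.83, adjusted p = 0.111) and without wild-type chow array 2 (0.89, adjusted p = 0.0645), and its call on HFD without FGF1 null HFD array 2 (1.02, adjusted p = 0.0554). Of the sinusoidal genes, Clec4g stayed between 11.80 and 12.35 and Stab1 between 7.34 and 8.01, and Stab2, a hyaluronan-clearing scavenger receptor, between 7.47 and 8.79. For Clec4g, the diet difference was 0.36 ± 0.11 in FGF1 null and 0.48 ± 0.11 in wild-type. Tie1 was detected in liver only in wild-type on HFD, on both arrays (5.87 and 5.23), and Flt4, the lymphatic VEGF-C receptor, on both arrays only of FGF1 null on chow (5.30 and 5.56), so differences of these genes are near background. In the additive fit to the 4 liver samples, 0 of 30 genes and 0% of all features were called for diet or genotype. For diet, 7 of 30 genes (23.3%) had an unadjusted p under 0.05, against 13.2% of all features, namely Vegfb, Sox18, Emcn, Icam2, Icam1, Nrp1 and Stab2, each with an estimate above 0. For genotype, 2 of 30 did (6.67%, against 3.4%), Vcam1 and Lyve1.

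Liver was set against eWAT over the 4 RNA samples of each, paired by genotype and diet and normalized together, for 34 genes. Of these, 2 were higher in liver and 15 lower, where 13.2% of all features were higher and 16.3% lower (29.5% in all), and the median difference was -0.97, against -0.13. The higher count includes Stab2, kept through liver alone, and the lower count Sox17 and Pgf, kept through eWAT alone. For these genes the filter favoured the direction of the call. Clec4g averaged 12.34 ± 0.22 in liver and 6.92 ± 1.79 in eWAT (SD, n = 4 each), a difference of 5.43 ± 0.66 (adjusted p = 0.00313). Stab2 averaged 8.76 ± 0.32 in liver and 4.97 ± 0.07 in eWAT, where it was detected on 3 of 8 arrays and on both arrays of no sample. Because the Stab2 probe was kept through liver alone, the filter favoured a higher liver level. Its eWAT level is near background, so neither a size nor a p-value is given for the difference, although Stab2 is in the count of called genes. Stab1, the relative of Stab2, was not called, at 8.39 ± 0.12 in liver and 8.49 ± 0.86 in eWAT (-0.10 ± 0.32). Clec4g and Stab2 are both known sinusoidal genes, and of them only Clec4g was kept in both tissues.

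Lower in liver were 10 of 16 general endothelial genes: Emcn, Vwf, Sox17, Sox18, Nos3, Pecam1, Esam, Flt1, Icam2 and Mmrn2. The Sox17 probe was kept through eWAT alone, so the filter favoured a lower liver level. It was detected on 2 of 8 liver arrays, and its liver level is near background. Emcn averaged 8.10 ± 0.35 in liver and 10.22 ± 0.74 in eWAT, a difference of -2.13 ± 0.24 (adjusted p = 0.00267), and Vwf 7.69 ± 0.35 in liver and 9.77 ± 0.56 in eWAT, a difference of -2.08 ± 0.24. The samples of the tissues did not overlap for either gene. Eng, a TGF-beta coreceptor, did not follow, at 8.90 ± 0.16 in liver and 8.77 ± 0.59 in eWAT. Pdpn averaged 6.07 ± 0.66 in liver and 10.80 ± 0.35 in eWAT, a difference of -4.73 ± 0.35 (adjusted p = 0.001). Its probe was detected on 5 of 8 liver arrays, and on 0 of 2 in FGF1 null liver on chow, so the size of this difference rests on a liver level near background. The other genes called lower were Angpt2 (-1.77), Notch4 (-1.65), Vegfb (-1.52) and Pgf. The Pgf probe was kept through eWAT alone and detected on 0 of 8 liver arrays, so no difference is given for it. Vegfa averaged 10.81 ± 0.16 in liver and 10.68 ± 1.15 in eWAT, and its 0.13 ± 0.46 was not called. An exact two-sided permutation test over 4 samples against 4, which does not use the pairing, cannot go below p = 0.0286. Of the called genes kept in both tissues, Emcn, Vwf, Esam, Pecam1, Sox18, Angpt2, Notch4, Pdpn and Clec4g reached this floor. Flt1, Mmrn2, Nos3 and Vegfb, also called lower, stood at 0.0571 and Icam2 at 0.0857. Egfl7, which was not called, reached the floor too. For Stab2, Sox17 and Pgf the filter favoured the direction, so no permutation p is given for them. Turning signs within the 4 pairs could give no two-sided p below 0.125.

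**Figure D5:**
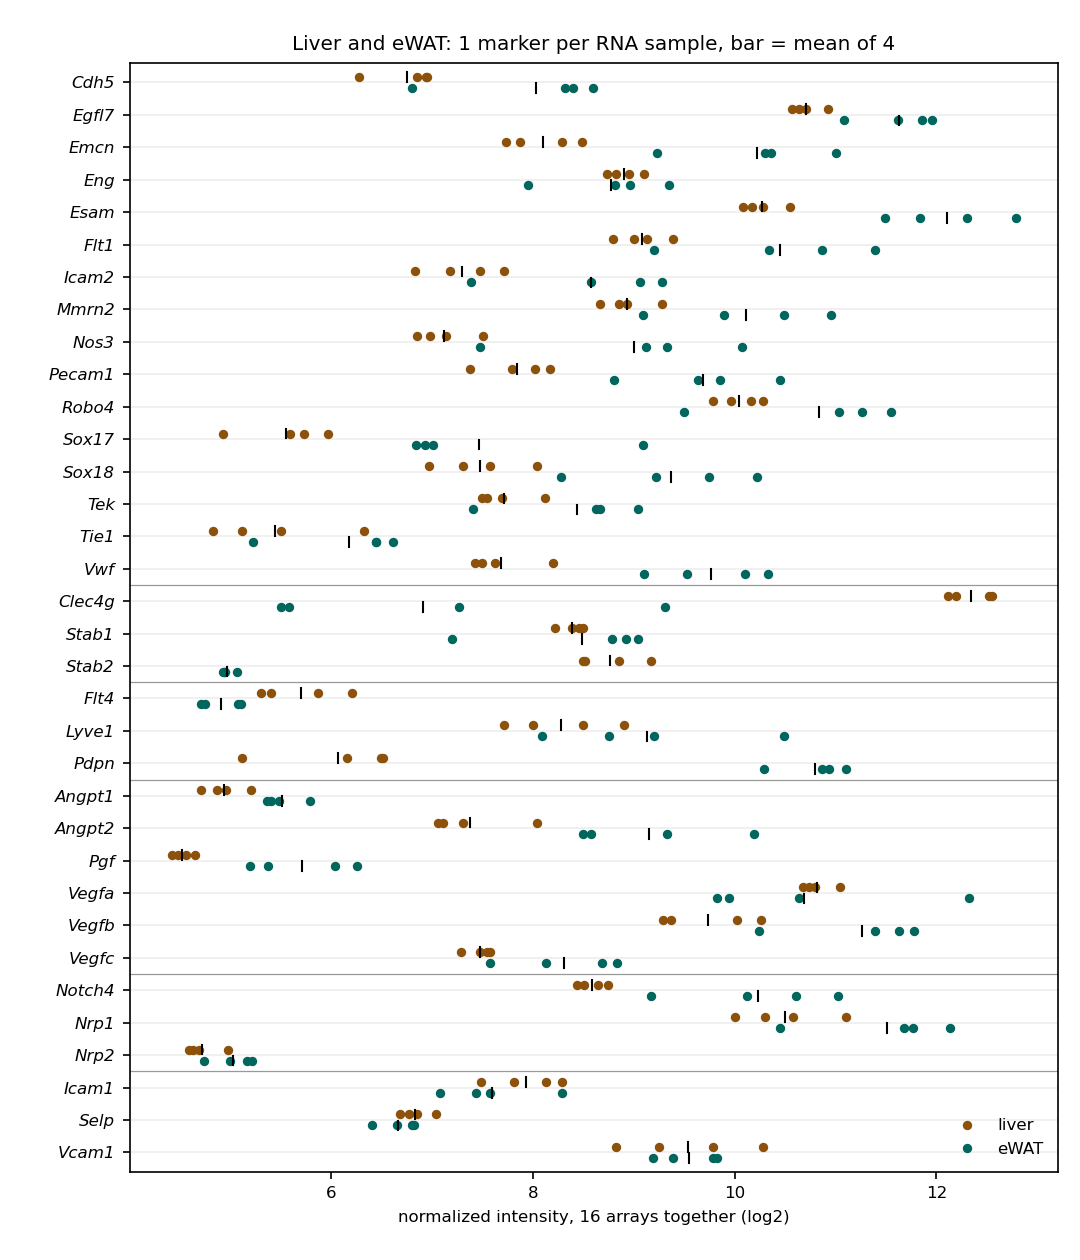
Level (log2, 16 arrays normalized together, horizontal axis) of 34 genes in 4 liver and 4 eWAT RNA samples, with 1 marker per sample and a bar at the mean of 4. Clec4g and Stab2 lie far to the right in liver, at means of 12.34 and 8.76, and Pdpn in eWAT, at 10.80. The Stab2 probe was kept through liver alone.

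Where a gene had more than 1 kept probe in eWAT, the brightest stood for it. The 3 probes of Nos3, and the 2 probes each of Nrp1, Pecam1, Sox17 and Vegfa, gave the same calls in the 4 eWAT comparisons of diet or genotype. The second Egfl7 probe was called higher on HFD in wild-type (1.39 ± 0.17) and in the sample labelled FGF1 null on chow (1.49 ± 0.17), where the brightest probe gave 0.79 and 0.70. The dimmer Notch4 probe gave 0.83 ± 0.31 for diet in wild-type, where the brightest gave 1.35, and the dimmer Flt1 probe 0.88 ± 0.21 in the sample labelled FGF1 null against wild-type on chow, where the brightest gave 1.09.

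Other vascular genes, outside the 40, were counted by list in the same eWAT comparisons. Of all eWAT features, 16.6% were called higher and 16.7% lower for diet in wild-type, and 4.18% and 6.02% for diet in FGF1 null. For genotype these shares were 13.7% and 13.6% on chow, and 5.27% and 6.01% on HFD. Lists of few genes can hold 1 or 2 calls at such shares. Of 24 further endothelial genes tested, 16 were called higher and 1 lower for diet in wild-type, 13 were higher in the sample labelled FGF1 null than in wild-type on chow, 5 were higher and 2 lower on HFD in FGF1 null, and 2 were higher and 2 lower in FGF1 null than in wild-type on HFD. Aplnr, the apelin receptor, had differences of 3.01 ± 0.14 for diet in wild-type and 3.45 ± 0.14 for genotype on chow, but was 2.13 ± 0.14 lower on HFD in FGF1 null and 1.69 ± 0.14 lower in FGF1 null than in wild-type on HFD. Of 27 other genes of angiogenic signalling, 9 were higher on HFD in wild-type and 10 in the sample labelled FGF1 null than in wild-type on chow, with 0 lower in each, while 4 were higher and 2 lower on HFD in FGF1 null, and 5 higher and 1 lower in FGF1 null than in wild-type on HFD. Of 6 further lymphatic genes, 0 were called for diet in either genotype, 2 were lower in the sample labelled FGF1 null than in wild-type on chow and 1 lower in FGF1 null than in wild-type on HFD, with 0 higher. Of 9 further sinusoidal genes, 6 were higher and 1 lower for diet in wild-type, 1 higher and 1 lower for diet in FGF1 null, 4 higher for genotype on chow and 3 lower for genotype on HFD. Of 8 inflammatory genes listed for endothelial activation, which immune cells also express, 5 were higher for diet in wild-type and 5 for genotype on chow, while 1 was higher and 3 lower for diet in FGF1 null and for genotype on HFD. Among 12 mural cell genes, which mark pericytes and smooth muscle around vessels, 5 were called higher and 5 lower for diet in wild-type, with Myh11, Cnn1, Des and Tagln of contractile smooth muscle among the lower ones, and 5 were higher and 3 lower in the sample labelled FGF1 null than in wild-type on chow. In liver the 18 tested further endothelial genes had 3 calls higher and 0 lower for diet in FGF1 null, 0 and 1 for diet in wild-type, and 0 and 1 for genotype on each diet. Of all liver features, 5.88% were higher and 2.7% lower for diet in FGF1 null, and 3.24% and 2.48% in wild-type. For genotype the shares were 3.34% and 1.62% on HFD, and 1% and 0.787% on chow.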

How the data were processed

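RNA from eWAT and liver was hybridized to mouse bead arrays, and the deposited table gives a raw intensity and a detection p-value per probe and array, exported by the authors with GenomeStudio per the submitters' processing notes, whose version is not given in the sources used here. A second deposited table holds normalized intensity values whose method is not given in the sources used here; it served only as an alternative. Raw intensities were background-corrected with neqc (offset 16) and quantile-normalized per tissue in limma 3.58.1 (R 4.3.3). Probes with detection p under 0.05 on both arrays of any group were kept, and the brightest probe stood for its gene (11935 features in eWAT, 8894 in liver, 12206 over both). Symbols came from the platform annotation: 23978 probes had 1 and 1719 none. Contrasts were fitted with limma on 8 arrays per tissue (4 residual degrees of freedom), on 4 RNA samples per tissue, and, for tissue, on 8 RNA samples with the genotype and diet pair as a block. The code was tested on simulated data. Medians of array SDs were 0.153 and 0.159 (log2) in eWAT and liver. These SDs measure the spread between arrays only, and with 1 RNA sample per group the spread between RNA samples of a group was not measured. Members and lists were chosen with earlier results of these data known. All 40 members are accounted for, with full values for up to 4 called members per comparison with the largest change, and up to 4 called genes of each other list; further members are given to show groups and were chosen after their values were seen. Alternatives were the background correction, offset, scaling, filter, probe choice, fold limit, left-out arrays, replicate block and the authors' values. Replicate numbers did not pair arrays across groups (correlations of deviations from -0.0679 to 0.0513).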

Additional observations from a re-analysis of the deposited data

Results flagged for a closer look

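With 4 RNA samples per tissue and levels of all 16 arrays normalized together, 1 sample stood apart from the other 3 when its gap to the nearest, as a share of the whole range, passed Dixon's 95% critical value. This held for 6 of 65 gene and tissue pairs (9.23%). The genes were read in the same 4 RNA samples of a tissue, so the pairs are not independent. Their share therefore cannot be set against a chance rate, and no share over all features was computed. In eWAT, wild-type on chow was the low sample for Cdh5 (gap share 0.843), Tie1 (0.876) and Stab1 (0.862). FGF1 null on HFD was the high eWAT sample for Sox17 (0.927). The same sample was high for Stab2 (0.874), where all 4 eWAT means lay between 4.93 and 5.07 and the probe was detected on 3 of 8 arrays. In liver, FGF1 null on chow was the low sample for Cdh5 (0.857), at 6.28 with the nearest sample at 6.85. With each tissue normalized alone, the gap shares were 0.818 for Cdh5 in liver and 0.806 for Sox17, which do not pass the critical value, and 0.844, 0.89 and 0.862 for Cdh5, Tie1 and Stab1 in eWAT, which do.

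The diet difference in eWAT differed between genotypes for 14 genes by the interaction term of the limma array fit, given as FGF1 null minus wild-type. That is 43.8% of the 32 tested genes, near the 39.5% of all features called for this term. It was above 0 for Sox17 (2.14) and Vegfa (1.42). It was below 0 for Angpt2 (-2.33), Nos3 (-2.28), Stab1 (-1.89), Clec4g (-1.84), Cdh5 (-1.82), Vegfc (-1.74), Tie1 (-1.66), Vegfb (-1.62), Nrp1 (-1.46), Icam1 (-1.29), Robo4 (-1.16) and Egfl7 (-1.01). Without background correction the values of Tie1, Icam1 and Egfl7 fell short of 2-fold. All 14 values use the wild-type chow sample and the sample labelled FGF1 null on chow, and compare RNA samples.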

How the results depend on the processing

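Of 1397 combinations of a called vascular gene and an alternative, 1301 kept the call and its direction, 96 kept the direction without the call and 0 turned round. With a 1.5-fold limit the counts of called genes were 15 for diet in FGF1 null eWAT, 23 for genotype on chow and 7 on HFD in eWAT, and in liver 5 for diet in FGF1 null, 4 in wild-type, 5 for genotype on HFD, 2 on chow and 2 for the interaction. Without background correction, 12 genes were called for diet in wild-type eWAT, 9 for genotype on chow in eWAT, and 0 in liver for diet in wild-type and for genotype on either diet. The authors' normalized values gave 12 and 7 for the same eWAT comparisons and 0 for each liver diet or genotype comparison. Median scaling gave 3 for liver diet in each genotype and 2 for genotype on chow in liver; normalizing all 16 arrays together gave 2 for liver diet in FGF1 null and 0 in wild-type, and 0 for genotype on chow; an offset of 50 gave 1 for genotype on HFD in liver and 0 on chow. The cause was not tested. Median scaling moved the median of all features to 0.30 for diet in wild-type eWAT and 0.27 for genotype on chow, -0.34 for the eWAT interaction, 0.18 and 0.26 for liver diet in FGF1 null and wild-type, and -0.35 between tissues, and its calls in liver were 595 higher and 121 lower for diet in wild-type, against 288 and 221.

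Leaving out 1 array at a time gave 4 to 6 called genes for diet in FGF1 null eWAT, 17 to 19 in wild-type, 4 throughout for genotype on HFD, 15 to 16 on chow and 13 to 15 for the interaction, and in liver 1 to 3, 0 to 2, 1 to 3, 0 to 2 and 0 to 1 in the same order. A group left with 1 array is assumed to vary like the others. The liver to eWAT comparison gave 14 called genes without the wild-type HFD eWAT sample and 24 without the wild-type chow eWAT sample, against 17. The replicate block left the counts at 4, 19, 4, 15 and 14 in eWAT and 1, 1, 2, 1 and 0 in liver; the numbers do not pair the arrays. Fitted without the wild-type chow eWAT sample, chosen after seeing the data, 5 genes were called for diet in FGF1 null and 4 for genotype on HFD. Each group is 1 RNA sample, so variation between mice was not measured, and dim genes (Pgf, Nrp2, Angpt1, liver Tie1 and Flt4) sit near background.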
